A study of Mus musculus with 16 samples.

Results

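The comparison described here is the line labelled P2ry1 knockout against wild type, both in vehicle: 4 libraries against 4, taken by their labels from the 16 libraries of the series. Both lines are BetaTC6, mouse insulinoma-derived β-cells of C57BL/6 background, obtained from ATCC. Per the labels' protocols, cells of both genotypes grew for 3 days, were starved of glucose in buffer, and received 20 mM glucose plus DMSO, the vehicle, 30 min before RNA was taken. The other 8 libraries are the same 2 lines with ivermectin, an antiparasitic drug, in place of DMSO alone. The labels do not give the edit that made the knockout line or how many clones it holds, nor do they say that libraries of a group came from separate cultures, so p-values measure the spread between these libraries, and a difference between the lines cannot be told apart from a difference between clones.

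P2ry1 encodes a receptor for extracellular ADP that couples to Gq, phospholipase C and the release of calcium from the endoplasmic reticulum. β-cells store nucleotides in the insulin granule and release them with insulin, so the receptor can act on the cell that secreted its ligand. Glucose sets off secretion through its breakdown to ATP, closure of ATP-sensitive potassium channels, calcium entry through voltage-gated channels and fusion of the granule with the membrane. A β-cell tumour line keeps this machinery beside genes of neural and embryonic endocrine cells.

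Levels are given in CPM, the expected count of a gene scaled to its library's normalized total, and values with ± are the mean and SD over the 4 libraries of a group. A gene was called different where edgeR's quasi-likelihood test, with Benjamini-Hochberg adjustment over the 10822 genes tested, gave an adjusted p under 0.05, and "rose" or "fell" is used of the knockout line relative to wild type. Totals were 893292 to 1065004 in wild type and 1744352 to 2013484 in the knockout line. The knockout libraries were thus the deeper ones in all 4 cases (exact permutation test, two-sided, p = 0.0286, the smallest that 4 against 4 can give, adjusted p = 0.0857). Genes of a hepatocyte list, in which some members, such as Adh1, were well counted in both lines, took 0.196% to 0.475% in wild type and 0.0619% to 0.078% in the knockout line of the total, with the same test values. The 21 acinar markers, 13 of them at 0 throughout (Cpa1 and Prss2 among them), summed to 38.4 to 46.2 CPM in wild type and 30.9 to 43.8 in the knockout line. The 11 ductal markers, of which 1, Krt19, was at 0 throughout, summed to 137 to 176 CPM in wild type and 89.8 to 127 in the knockout line, which do not overlap, and their part in other differences was not tested. The β-cell genes Ins2, Iapp, Pdx1, Nkx6-1, Mafa and G6pc2 were well counted in each. Ucn3, a gene of mature β-cells, had a count of 0 or 1 in all 8.

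P2ry1 itself (chr3:61002785-61008982, plus strand) was not lower by this test. P2ry1 stood at 91.05, 106, 96.2 and 85.4 CPM in the wild-type libraries and at 83.6, 94.8, 72.8 and 84.8 in the knockout libraries. The groups overlapped, and the log2 difference was -0.17 (SE 0.10, adjusted p = 0.245). Where in the gene the edit lies is not given, so counts over the whole transcript do not check the genotype. Of 9 purinergic receptors and ectonucleotidases tested, 2 were called, 22.2%, near the 20.7% called over all genes tested. Entpd3, an ectoenzyme that breaks down ATP and ADP, stood at 41.4 ± 11.02 CPM in wild type and 28.2 ± 5.56 in the knockout line (log2 -0.55, adjusted p = 0.017), with overlapping groups, and the call was lost without wild-type library 1 or knockout library 4. Enpp1, another nucleotide-cleaving ectoenzyme, had 2.76 ± 1.18 CPM against 8.65 ± 1.99 (adjusted p = 0.00513), with 11 counts in all in wild type. In ivermectin Enpp1 was not called (log2 0.52, adjusted p = 0.312). Downstream of the receptor, 4 of 44 genes of Gq signalling and calcium stores were called, 2 in each direction. This is 9.09%, below the share over all genes, and with a correction for transcript length (described with the ribosomal protein genes) 5 were higher and 3 lower. Atp2a3, a calcium pump of the endoplasmic reticulum, rose from 585 ± 28.2 to 974 ± 51.6 CPM, and Plcg1, a phospholipase C, from 137 ± 24.2 to 177 ± 11.4. Prkca, a calcium-dependent protein kinase C, fell from 115 ± 12.3 to 81.03 ± 2.52 CPM, and Camk4, a calmodulin-dependent kinase, from 38.3 ± 3.16 to 24.2 ± 3.42.

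Over all genes, 2244 of 10822 were called, 20.7% of those tested. Of these, 1070 (9.89% of the genes tested) rose and 1174 (10.8%) fell. Counts of list members that rose or fell are to be read against these shares. Most changes were small: the median size of a called change was 0.484 on the log2 scale, 62.03% were under 1.5-fold, and 86 rose and 267 fell by more than 2-fold. When the test asked for a change beyond 1.5-fold, 51 genes rose and 186 fell. In the 8 ivermectin libraries, 3013 genes were called between the lines (27.8% of those tested), 1513 higher (14%) and 1500 lower (13.9%). None of these 8 is among the libraries compared in vehicle. Both comparisons came from 1 fit of all 16 libraries, with a shared filter, scaling and estimate of the spread, so they are not fully independent tests. In the same direction in both, 1629 genes were called. Of the 219 genes outside the hepatocyte list that fell by more than 2-fold in vehicle, 168 also fell in ivermectin, and of the 86 that rose, 71 also rose. A direct test of whether the line difference depended on the treatment called 24 genes (0.222%), with 1 more positive (0.00924%) and 23 more negative (0.213%) in vehicle. With the level of Alb, the albumin gene, as a covariate the vehicle comparison called 386 of the 10822 genes, 206 higher and 180 lower. List counts given below for that fit are to be read against these totals, not against the shares without the covariate. Alb did not overlap between the groups (lowest wild-type value 328, highest knockout value 52.3 CPM), so within vehicle the covariate and the line moved together. Of the 161 called genes named here, 83 kept their direction and lost the call in that fit and 2 changed sign, and these are given group by group; of the genes above they are Entpd3, Enpp1, Prkca, Plcg1 and Camk4, which leaves no purinergic gene and 1 gene of the Gq list, Atp2a3, called. Over all tested genes the groups did not overlap in 22.2%, and overlap among the called genes named is said where it occurs.

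Some of the differences were close to presence against absence. Pdyn (chr2:129686549-129699938, minus strand), the precursor of the dynorphin opioid peptides, was counted in wild type only. Pdyn stood at 19.1, 23.5, 17.1 and 9.29 CPM in the wild-type libraries and at 0 each in the knockout libraries. With 3 counts per library as the limit that a count of 0 allows, it was at least 10.9-fold lower in the knockout line (edgeR adjusted p = 1.65e-09). Nkx2-4 (chr2:147083337-147085439, minus strand), a homeobox factor, had 10.1, 9.78, 11.8 and 13 CPM in the wild-type libraries and 1 count in all in the knockout libraries, a pooled ratio of 85.3 (95% interval 14.5 to 3440). Fxyd6, a regulator of the sodium pump, had a pooled ratio of 51.4 (95% interval 13.5 to 435), Necab2, a neuronal calcium-binding protein, 29.1 (95% interval 9.33 to 146), and the leak potassium channel Kcnk1 28.1 (95% interval 7.11 to 243). Each of these genes was above every knockout library in every wild-type library. Vcan, which encodes the matrix proteoglycan versican, fell from 19.6 ± 2.74 to 1.15 ± 0.87 CPM, and Slit1, an axon guidance ligand, from 29.2 ± 2.99 to 2.14 ± 0.921. Necab2 and Kcnk1 lie on chromosome 8, where the median gene was lower by 0.13 on the log2 scale. The intervals on pooled ratios are exact and cover counting error only.

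**Figure D1:**
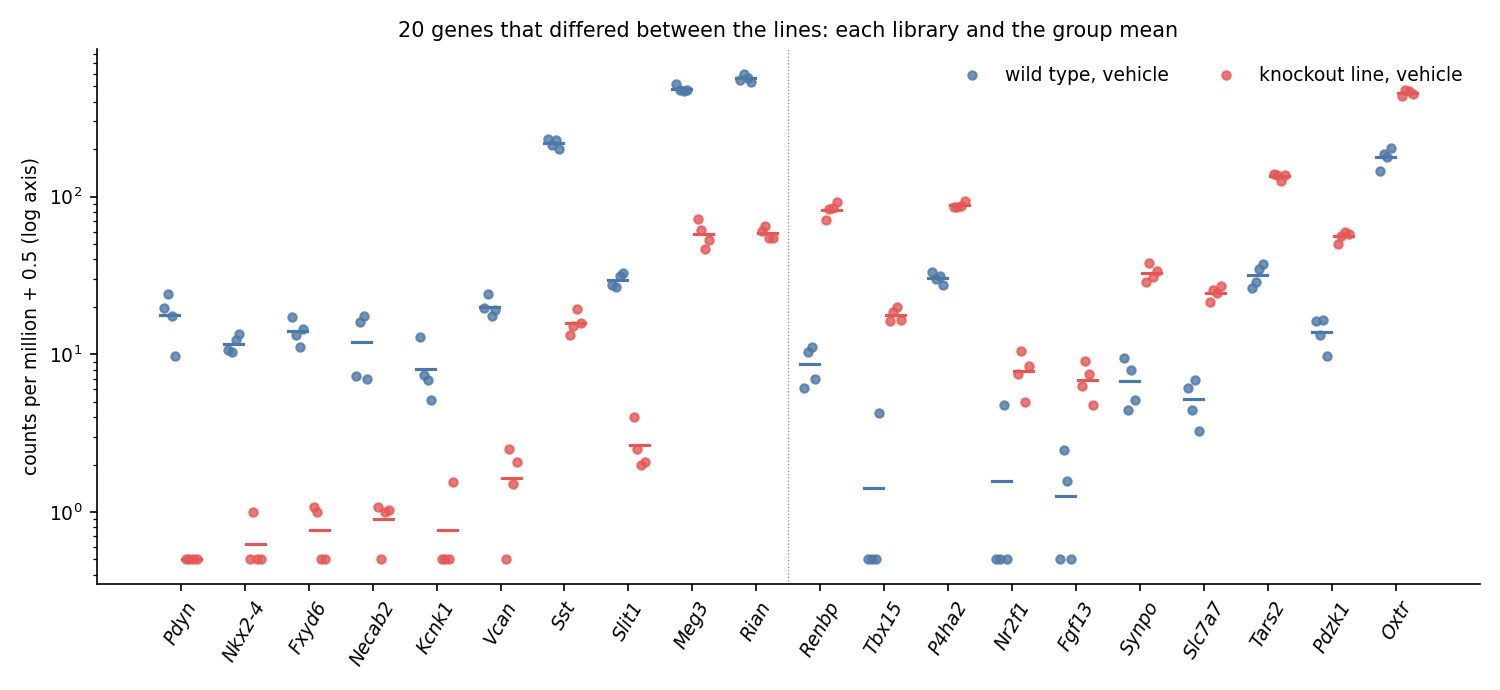
CPM plus 0.5, on a log axis, of 20 genes in each of the 4 wild-type and 4 knockout vehicle libraries (points), with the group mean (bar). The 10 genes on the left fell and the 10 on the right rose, and in none of the 20 do the groups overlap.

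Genes that went the other way were led by Tbx15 (chr3:99240348-99354260, plus strand), a T-box factor of the developing skeleton and fat. Tbx15 stood at 0, 0, 0 and 3.71 CPM in the wild-type libraries and at 15.7, 18.1, 19.5 and 15.9 in the knockout libraries. Only wild-type library 4 had counts, and the pooled ratio was 17 (95% interval 6.49 to 63.4). Renbp (chrX:73922121-73930850, minus strand), the renin-binding protein, which also acts on amino sugars, rose about 10.1-fold. Renbp stood at 5.62, 9.78, 10.7 and 6.501 CPM in the wild-type libraries and at 70.3, 82.7, 83.8 and 92.2 in the knockout libraries. The groups did not overlap (log2 3.33, SE 0.18, adjusted p = 3.81e-16). Tars2, the mitochondrial threonyl-tRNA synthetase, rose from 31.4 ± 5.19 to 135 ± 6.47 CPM, and Pdzk1, a scaffold for membrane transporters, from 13.4 ± 3.15 to 55.6 ± 3.97. Synpo, an actin-associated protein, rose from 6.26 ± 2.39 to 32.5 ± 3.98 CPM. Slc7a7, a subunit of a cationic amino acid exchanger, rose from 4.68 ± 1.64 to 24.1 ± 2.37. P4ha2, a collagen prolyl hydroxylase, went from 29.96 ± 2.42 to 87.9 ± 4.005 CPM, Tcn2, which carries cobalamin, from 64.4 ± 4.55 to 143 ± 13.8, and Tm4sf4, a membrane protein of developing islets, from 183 ± 7.298 to 347 ± 19.04. Among genes with higher counts, Cd63, a tetraspanin of lysosomes and granules, rose from 559 ± 13.7 to 1053 ± 73.04 CPM (adjusted p = 6.13e-15), and Perp, a desmosome-associated p53 target, from 48.5 ± 6.701 to 98.5 ± 8.08. Each of these 11 genes also rose in the ivermectin libraries, with log2 differences between 0.91 and 3.15, and kept its call with Alb as a covariate.

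Hormone and neuropeptide genes differed in number and size. Of 13 tested, 2 rose and 6 fell (median log2 -0.24, against -0.0007 over all genes). Sst (chr16:23889573-23891342, minus strand), which encodes somatostatin, the hormone of δ-cells and an inhibitor of insulin release, had one of the clearest falls. Sst stood at 233, 211, 229 and 199.7 CPM in the wild-type libraries and at 12.8, 14.5, 18.96 and 15.4 in the knockout libraries. The groups did not overlap, and the log2 difference was -3.80 (SE 0.13, adjusted p = 2.66e-23). In ivermectin it was -3.62. Galanin (Gal), another inhibitor of insulin release, had a pooled ratio of 15 (95% interval 5.31 to 58.6), wild type over knockout. Npy, neuropeptide Y, fell from 1801 ± 131 to 1161 ± 104 CPM and Gcg, the glucagon precursor, from 297 ± 26.3 to 216 ± 12.9. Iapp, the amyloid peptide secreted with insulin, rose from 5493 ± 329 to 7206 ± 391 CPM and Cck, cholecystokinin, from 785 ± 48.7 to 1057 ± 72.9. The insulin genes themselves were not called: Ins1 had 3865 ± 290.2 CPM against 3452 ± 321 (adjusted p = 0.071), and Ins2 20439 ± 1555 against 19941 ± 1896 (adjusted p = 0.768). Per transcript length, in the deposited TPM, wild-type Ins2 stood at 122540.0 ± 3696 and Sst at 833 ± 35.3, and in the knockout line Ins2 stood at 113098 ± 5219.7 and Sst at 55.9 ± 9.77. The 5 markers of δ-cells, none at 0 throughout, summed to 281.8 to 334.7 CPM in wild type and 68.3 to 90.4 in the knockout line, and most of the wild-type sum is Sst. Without Sst, the other 4 summed to 68.96 to 103 CPM in wild type and 53.6 to 71.5 in the knockout line, and the groups overlapped. The 5 markers of PP and ε-cells, 2 of them at 0 throughout, summed to 375 to 406 CPM in wild type and 303 to 349 in the knockout line, without overlap. The 10 α-cell markers, Gcg among them and none at 0 throughout, summed to 1192 to 1389 and 1257 to 1383 CPM, with overlap. In bulk RNA, fewer cells of a type and less RNA per cell cannot be told apart. Gcg and Cck were no longer called with Alb as a covariate, and in that fit 1 gene of the list rose and 4 fell.

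Promoters of 2 of the strongest falls, Sst and Meg3 (next), hold the cAMP response element TGACGTCA in the 250 bases before a transcript start, and are shown with that element in capitals, from the RefSeq promoter table of build GRCm38.p6. The Sst window is chr16:23890845-23891094 on the minus strand and the Meg3 window chr12:109540746-109540995 on the plus strand, both written 5′ to 3′. For Sst that start is the one of the RefSeq Select transcript, at position 23890844. A predicted RefSeq transcript starts upstream, at 23891342, which is the end of the gene span given above, so the window lies before the first start and inside the span of the predicted one.
Sst: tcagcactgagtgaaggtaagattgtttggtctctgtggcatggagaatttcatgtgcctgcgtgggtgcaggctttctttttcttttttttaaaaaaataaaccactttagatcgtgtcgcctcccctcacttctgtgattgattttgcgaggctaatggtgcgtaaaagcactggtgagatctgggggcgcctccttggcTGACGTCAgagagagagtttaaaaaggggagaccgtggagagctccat
Meg3: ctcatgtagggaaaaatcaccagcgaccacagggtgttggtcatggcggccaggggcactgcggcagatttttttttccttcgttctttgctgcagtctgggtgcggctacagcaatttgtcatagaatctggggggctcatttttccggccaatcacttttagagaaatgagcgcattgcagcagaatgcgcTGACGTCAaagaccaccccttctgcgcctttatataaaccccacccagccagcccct
The element starts 48 bases before that start of Sst and 57 before that of Meg3. Searched on both strands, it was found before 3.302% of the 8722 tested genes with a window, 3.94% of those that rose and 4.11% of those that fell, so that over all genes it was about as frequent in both directions. A match describes the letters and is not evidence of binding.

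Imprinted genes, expressed from the allele of only 1 parent, were called in 22 of 42 cases, 7 higher and 15 lower (median log2 -0.22). The largest changes were in the noncoding RNAs of 1 domain of chromosome 12, which are expressed from the maternal allele. Meg3 stood at 519, 474, 466 and 472 CPM in the wild-type libraries and at 71.4, 61.2, 45.9 and 52.97 in the knockout libraries. Rian (chr12:109603945-109661716, plus strand) followed with 553, 603, 563 and 531 CPM in wild type and 60.4, 64.7, 53.9 and 54.6 in the knockout line. Both fell about 8.34 and 9.64-fold, with no overlap (log2 -3.06, SE 0.10, and -3.27, SE 0.08; adjusted p = 7.9e-24 and 2.17e-28). Mirg, the host of a microRNA cluster of the same domain, fell from 19.3 ± 3.75 to 2.72 ± 0.935 CPM. Dlk1, the paternally expressed Notch-related ligand at the other end of the domain, fell by less, from 289 ± 15.2 to 194 ± 5.36 CPM. Elsewhere, Cd81, a tetraspanin, fell from 86.99 ± 9.07 to 26.3 ± 1.94 CPM and Ndn, necdin, from 40.5 ± 1.87 to 8.81 ± 0.65. Igf2, a fetal growth factor highly expressed in these cells, rose from 2271 ± 98.2 to 3700.1 ± 90.5 CPM (adjusted p = 3.03e-13), Igf2r, which clears it, from 439.5 ± 37.2 to 628 ± 66.1, and Nnat, neuronatin, from 2844 ± 128 to 3859 ± 294. The log2 differences of Meg3 and Rian in ivermectin were -3.17 and -3.27. Igf2r lost its call with Alb as a covariate, and in that fit 2 imprinted genes rose and 8 fell.

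Genes of the secretory granule moved in both directions. Among granins and prohormone-processing genes, 2 of 19 rose and 7 fell. Chgb, chromogranin B, a main soluble protein of the granule, stood at 1297, 1235, 1197 and 1154 CPM in the wild-type libraries and 732, 671, 686 and 695 in the knockout libraries. These do not overlap (log2 -0.81, SE 0.05, adjusted p = 1.46e-14). Pam, which amidates peptides, fell from 293 ± 18.03 to 218 ± 9.63 CPM, and Sez6l2, a neuronal membrane protein, from 487 ± 35 to 347 ± 18.99. Cpd, carboxypeptidase D, rose from 281 ± 22.1 to 423 ± 30.5 CPM and Vgf, a granin-family precursor, from 340.2 ± 41.3 to 443 ± 6.196. Of 49 exocytosis genes, 4 rose and 8 fell, 24.5%, near the share over all genes. Syt11, a synaptotagmin that does not bind calcium, fell from 169 ± 5.75 to 88.2 ± 7.65 CPM, Rab3a, a GTPase of docked granules, from 143 ± 9.04 to 96.5 ± 3.56, and Syt4 from 222 ± 5.42 to 159 ± 7.100. Sytl4, granuphilin, which docks granules, rose from 452 ± 23.9 to 570.5 ± 20.1 CPM, and Vamp8, a SNARE protein, from 34.01 ± 8.79 to 53.6 ± 7.87. In ivermectin Vamp8 was not called (adjusted p = 0.0877). Syt10, a calcium sensor outside the list, rose from 4.93 ± 2.68 to 20.7 ± 3.91 CPM. Pam, Cpd, Vgf, Vamp8 and Sytl4 lost their calls with Alb as a covariate, where 2 granin and processing genes and 4 exocytosis genes fell and none of either list rose. With the length correction 7 exocytosis genes rose and 7 fell.

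In the list of channels that set excitability, 5 of 46 genes rose and 10 fell (median log2 -0.23). Of 26 potassium channel subunits none was called higher (1 without wild-type library 2) and 9 were called lower (median log2 -0.57). Beside Kcnk1, the voltage-gated channel Kcnh1 had 50.6, 45.96, 49.1 and 54.8 CPM in wild type and 16.8, 20.6, 13.97 and 11.7 in the knockout line. Each wild-type library was above each knockout library (log2 -1.67, SE 0.17, adjusted p = 2.91e-09). Kcnf1, a modifier subunit, fell from 50.6 ± 5.45 to 26.3 ± 5.48 CPM. Among calcium and sodium channels, Cacnb2, a subunit of voltage-gated calcium channels, fell from 27.1 ± 2.07 to 13 ± 3.13 CPM and the sodium channel Scn9a from 18.04 ± 4.17 to 7.65 ± 1.43, whereas the low-voltage calcium channel Cacna1h rose from 56.9 ± 7.12 to 80.3 ± 7.19. Abcc8, the sulfonylurea receptor of the ATP-sensitive channel, rose from 631 ± 31.7 to 823 ± 48.3 CPM, and its pore subunit Kcnj11 was not called (129 ± 9.68 against 140.3 ± 4.503, adjusted p = 0.43). Trpm5, a calcium-activated cation channel, rose from 70.3 ± 13.3 to 105 ± 12.1 CPM, and Fgf13, an intracellular protein that binds sodium channels, had a pooled ratio of 8.43 (95% interval 2.72 to 42.3), knockout over wild type. Clcn3, a chloride-proton exchanger of endosomes and granules, went from 229.9 ± 18.7 to 164 ± 10.8 CPM. With Alb as a covariate Kcnk1, Clcn3, Kcnf1, Cacnb2, Scn9a, Cacna1h, Abcc8, Trpm5 and Fgf13 were no longer called, 3 potassium channel subunits fell, and in the excitability list none rose and 1 fell. Among genes averaging 50 counts or more, a limit that leaves fewer members tested, 3 potassium channel subunits were called lower.

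In glucose entry and phosphorylation, 2 of 9 genes rose and 1 fell (1 and none without wild-type library 4). G6pc2, a glucose-6-phosphatase of islets, rose from 1323 ± 63.3 to 1480.2 ± 31.9 CPM, a call lost without wild-type library 4, and the fructose carrier Slc2a5 from 166 ± 16.4 to 208 ± 3.38. Slc2a2, the glucose carrier of rodent β-cells, had 42.96 ± 7.74 against 43.6 ± 3.03 CPM (adjusted p = 0.976). Neither G6pc2 nor Slc2a5 was called with Alb as a covariate.

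Of 43 genes of surface receptors and cAMP signalling, 3 rose (6.98%, against 9.89% over all genes) and 13 fell (30.2%, against 10.8%), with a median log2 difference of -0.21. Outside that list, Oxtr (chr6:112473683-112491035, minus strand), the oxytocin receptor, which like the P2ry1 product couples to Gq, rose. Oxtr stood at 145, 185, 177 and 203 CPM in the wild-type libraries and at 432, 476, 468 and 446 in the knockout libraries. The groups did not overlap (log2 1.35, SE 0.07, adjusted p = 2.2e-16). Adra2a, the adrenergic receptor through which adrenaline stops insulin release, fell from 196 ± 10.02 to 98.3 ± 8.12 CPM (adjusted p = 1.2e-10). Gipr, an incretin receptor, fell from 16.2 ± 6.303 to 6.198 ± 1.397 CPM, and the other incretin receptor gene, Glp1r, was not called (129 ± 15.01 against 108 ± 6.61, adjusted p = 0.0997). In ivermectin Glp1r was called lower (log2 -0.28, adjusted p = 0.0403). Gnas, the G protein subunit that activates adenylyl cyclase, fell from 4039.8 ± 126 to 2992 ± 64.2 CPM, and Pde4b, which degrades cAMP, from 135 ± 11.96 to 64.1 ± 11.04. With Alb as a covariate Oxtr kept its call and Gipr did not, and of the 43 listed genes none rose and 5 fell. The number of listed genes that rose was 1 with DESeq2 and 1 without wild-type library 3. After thinning all libraries to the smallest total, 1 of the 36 still tested rose.

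Among 20 transcription factors of β-cell identity, none rose (0%, against 9.89% over all genes) and 5 fell (25.0%, against 10.8%). The median log2 difference was -0.18, and in ivermectin 1 was higher and 10 were lower. Mnx1 had 22.5 ± 4.49 CPM against 9.06 ± 2.799, Isl1 327 ± 11.5 against 244 ± 4.99, Myt1 110.2 ± 4.21 against 75.3 ± 6.11 and Pdx1, the factor that drives insulin transcription, 319 ± 15.2 against 262 ± 6.72 (adjusted p = 0.00213). Without wild-type library 1, 2 or 4, 1 factor was called higher, and without wild-type library 3, 2 were. Of 38 homeobox factors 4 rose (10.5%) and 7 fell (18.4%), against 9.89% and 10.8% over all genes. Of 27 T-box, Sox, Fox and Gata factors 5 rose (18.5%) and 2 fell (7.41%). Single factors of neural and other lineages, most at low counts, were called in each direction. Nr2f1, an orphan nuclear receptor, had a pooled ratio of 7.22 (95% interval 2.67 to 27.4), Nkx2-1, a factor of forebrain, thyroid and lung, 4.13 (95% interval 1.88 to 10.7), and Gata6, a factor of endoderm and pancreas, 4.13 (95% interval 1.76 to 11.8), all knockout over wild type. Pou4f1, a factor of sensory neurons, rose from 12.1 ± 3.15 to 24.4 ± 5.87 CPM. Six3, a forebrain factor, fell from 15.5 ± 4.04 to 4.99 ± 0.267 CPM and Sox12, a factor of immature neurons, from 61.4 ± 10.2 to 16.7 ± 3.76 (adjusted p = 6.67e-10). Of the factors just named, Myt1 and Six3 kept their calls with Alb as a covariate, and 1 of the 20 β-cell factors fell in that fit.

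More genes of cell adhesion fell than rose in the comparison without a covariate. Among 38 genes of neuronal and synaptic adhesion, 4 rose (10.5%, against 9.89% over all genes) and 16 fell (42.1%, against 10.8%), with a median log2 of -0.37. Among 45 cadherins and protocadherins 4 rose (8.89%) and 15 fell (33.3%), with a median log2 of -0.49. Odz3, a teneurin, fell from 378 ± 27.6 to 206 ± 24.5 CPM (adjusted p = 1.86e-10), Nfasc, neurofascin, from 126 ± 16.2 to 73.6 ± 6.69, and Cadm1, an immunoglobulin-type adhesion protein that joins β-cells, from 224 ± 15.8 to 143 ± 13.5. Nrcam, a neuronal adhesion protein, rose from 129 ± 18.7 to 194 ± 4.85 CPM, Cntnap2 from 30.8 ± 6.12 to 48.7 ± 5.67, and Cntn1, a contactin, from 132 ± 9.64 to 167 ± 9.15. Cdh6 fell from 16.4 ± 3.18 to 4.296 ± 1.71 CPM, Pcdh10 from 215 ± 18.8 to 141 ± 4.23, and Pcdhb11, of a cluster of near-identical genes whose reads are hard to assign, from 21.04 ± 4.17 to 7.62 ± 2.39. Cdh13 rose from 4.04 ± 1.17 to 12.2 ± 2.76 CPM and Pcdh7 from 299.6 ± 33.5 to 421 ± 27.98. Gpr56, an adhesion receptor of β-cells, fell from 50.8 ± 6.36 to 8.86 ± 2.295 CPM (adjusted p = 7.06e-13). Nptx2, a secreted neuronal pentraxin that clusters glutamate receptors, had 133, 113, 142 and 112 CPM against 27.3, 30.6, 25.4 and 26.5, and its receptor Nptxr 98.04 ± 28.8 against 48.7 ± 3.66. Hepacam2, an adhesion protein of endocrine cells, fell from 255 ± 22.1 to 115 ± 5.13 CPM, Sec14l1, a lipid-binding protein, from 132 ± 15.02 to 50.4 ± 0.782, and the keratin Krt8 from 32.6 ± 4.83 to 10.4 ± 1.44. Efna5, an ephrin, rose from 25.7 ± 5.39 to 47.8 ± 7.44. With Alb as a covariate Odz3, Cadm1, Nrcam, Pcdh10, Gpr56, Nptx2, Hepacam2 and Sec14l1 kept their calls, and the other 10 adhesion and related genes just named did not. In that fit 1 neuronal and synaptic adhesion gene rose and 4 fell, and of the cadherins and protocadherins none rose and 1 fell. The 15 markers of neurons and glia, 3 of them at 0 throughout, summed to 393 to 440.4 CPM in wild type and 299 to 372 in the knockout line, and the 11 endothelial markers, 2 of them at 0 throughout, to 8.96 to 17.8 and 3.48 to 7.08. Neither pair of groups overlapped, and the part of these cell types in the adhesion genes was not tested. After thinning, 9 of the 35 cadherins still tested fell. Among genes averaging 50 counts or more, a limit that leaves fewer members of each list tested, 4 cadherins and 8 adhesion genes fell.

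In the extracellular matrix list, 5 of 28 rose (17.9%, against 9.89% over all genes) and 9 fell (32.1%, against 10.8%). Without wild-type library 2, or after thinning, which left 25 tested, 3 rose. Timp2, an inhibitor of metalloproteases, fell from 19.9 ± 2.52 to 2.24 ± 0.91 CPM and Sdc3, a syndecan, from 44.9 ± 13.8 to 17.3 ± 3.96. Lamb1, a laminin chain, rose from 26.4 ± 4.28 to 50.4 ± 4.84 CPM, as did Col11a1, a fibrillar collagen outside the list, from 7.67 ± 2.46 to 24.5 ± 1.57. Growth factors and their receptors split as well: 7 of 31 rose (22.6%) and 10 fell (32.3%). Tgfa, a ligand of the EGF receptor, fell from 19.9 ± 4.67 to 2.91 ± 0.96 CPM, Igfbp4, which binds insulin-like growth factors, from 46.7 ± 3.14 to 12.9 ± 1.89, and Ngfr, a neurotrophin receptor, from 59.2 ± 12.9 to 28.5 ± 4.06. In the TGF-β, Wnt and Notch list 4 of 40 rose and 10 fell. Tgfb2 fell from 23.9 ± 7.05 to 7 ± 3.39 CPM while Tgfb1, a ligand of the same receptors, rose from 5.39 ± 1.63 to 16.5 ± 3.58. Bmp1, a protease that matures procollagen, fell from 474 ± 29.8 to 375 ± 9.66 CPM, and Id2, a target of BMP signalling, rose from 89.5 ± 11.5 to 121 ± 3.49. Sdc3, Lamb1, Ngfr, Tgfb1, Tgfb2 and Id2 lost their calls with Alb as a covariate, where 2 listed matrix genes fell and none rose (Col11a1 kept its call), 1 growth factor gene rose and 4 fell, and 1 gene of the TGF-β, Wnt and Notch list rose and 2 fell. Among genes averaging 50 counts or more, a limit that leaves fewer members tested, 2 matrix genes and 4 growth factor genes fell.

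**Figure D2:**
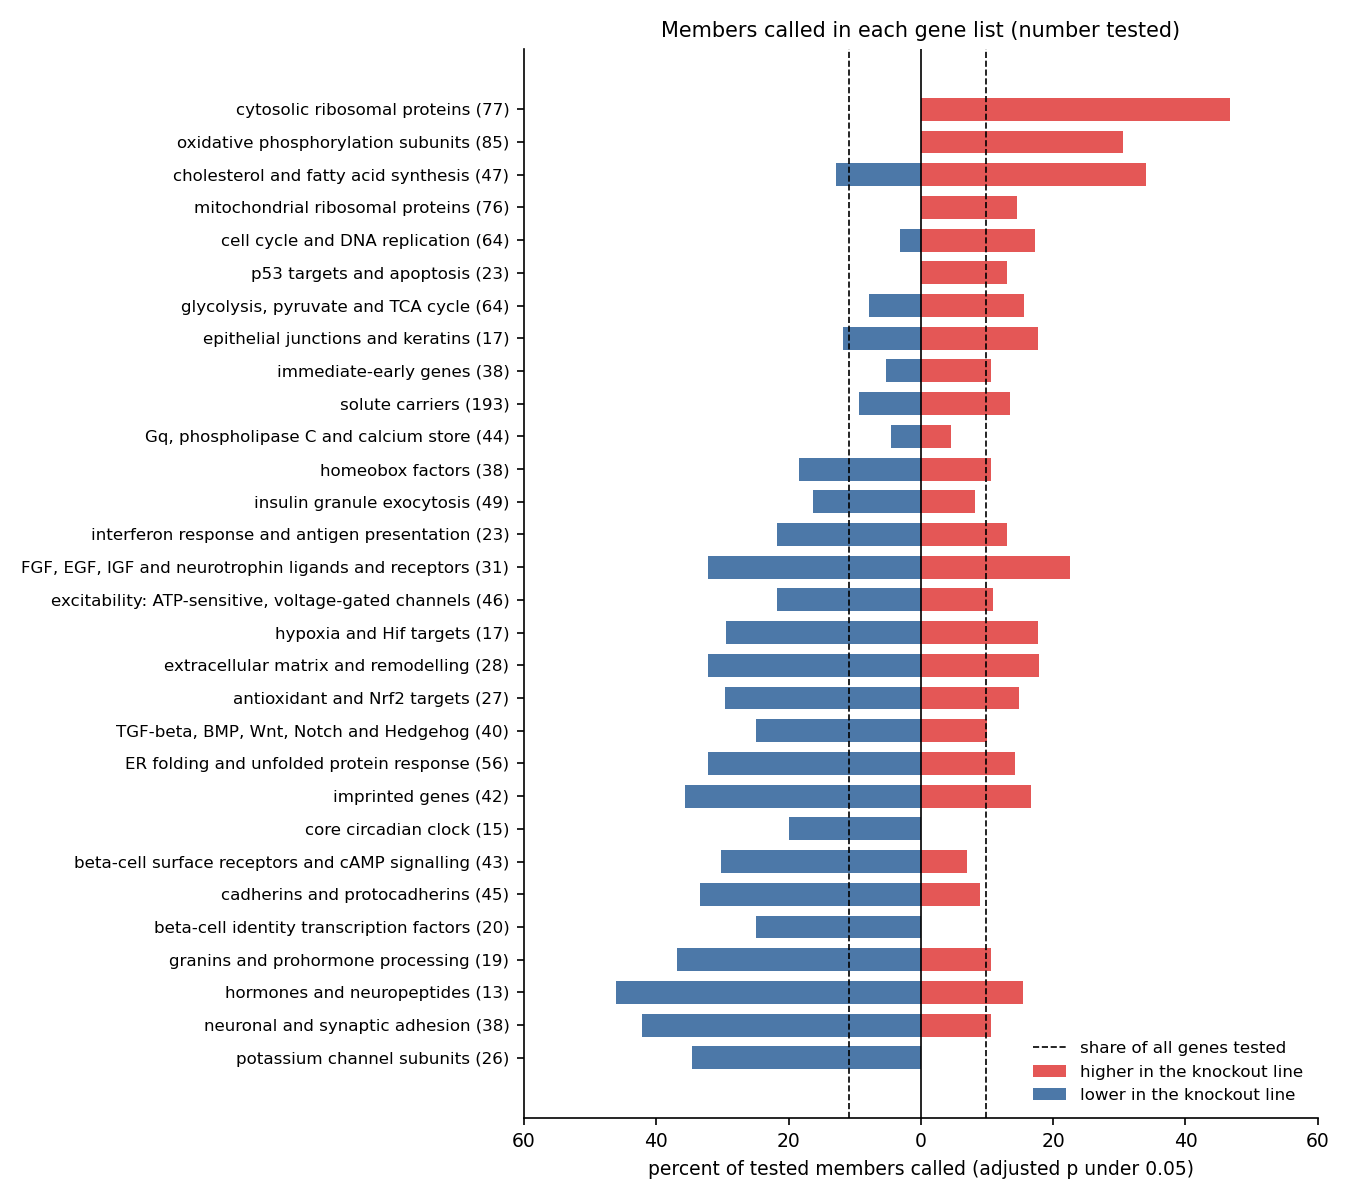
Percent of the tested members of each gene list that were called higher (right) or lower (left) in the knockout line in vehicle, with the number tested in parentheses. The dashed lines are the shares over all genes, 9.89% higher and 10.8% lower; none of the potassium channel subunits was higher and none of the ribosomal or oxidative phosphorylation genes was lower.

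Of 47 genes of cholesterol and fatty acid synthesis, 16 rose and 6 fell (median log2 0.21; 17 and 4 in ivermectin). Scd2, a fatty acid desaturase, had 1049.8, 1166, 1027 and 1099.6 CPM in wild type and 1618, 1806, 1651 and 1682 in the knockout line. Every knockout library was above every wild-type library (log2 0.64, SE 0.05, adjusted p = 5.2e-12). Insig1, a sterol sensor and target of SREBP factors, rose from 233 ± 15.8 to 362 ± 3.904 CPM, Srebf1, which encodes such a factor, from 180.2 ± 13.4 to 278 ± 19.7, and the desaturase Fads1 from 444 ± 40.7 to 665 ± 28.1. Insig2, the sterol sensor that SREBP does not drive, fell from 76.2 ± 3.62 to 50.96 ± 8.64 CPM and Dgat2, which makes triglyceride, from 21 ± 7.93 to 7.13 ± 1.74. With Alb as a covariate 4 genes of the list rose and none fell, and Insig1, Insig2, Srebf1 and Dgat2 lost their calls. In glycolysis and the TCA cycle, 10 of 64 genes rose and 5 fell, 23.4%, near the share over all genes, and 3 fell without wild-type library 1 or knockout library 3. Idh1 rose from 88.9 ± 12.7 to 127 ± 13.3 CPM, Sdha, a succinate dehydrogenase subunit, from 253 ± 14.8 to 308 ± 7.78, and Slc25a13, a carrier of the malate-aspartate shuttle, from 6.89 ± 2.67 to 16.9 ± 4.19. Gpd1, of the glycerol phosphate shuttle, fell from 9.38 ± 0.753 to 1.28 ± 0.834 CPM, and Pfkfb2, a regulator of glycolysis, from 69.1 ± 3.75 to 48.1 ± 5.13. Only Idh1 of these 5 kept its call with Alb as a covariate, where 1 gene of the list rose and 1 fell. Among solute carriers 26 of 193 rose and 18 fell, 22.8%, near the share over all genes. Slc38a5, a glutamine carrier, rose from 1316 ± 60.5 to 2079 ± 61.8 CPM (adjusted p = 3.04e-13) and the iron exporter Slc40a1 from 125 ± 6.86 to 177 ± 6.55. The metal ion carrier Slc39a8 fell from 314 ± 14.02 to 206 ± 15.2 CPM and the cationic amino acid carrier Slc7a2 from 320.3 ± 5.76 to 238 ± 15.4. Slc40a1 and Slc7a2 lost their calls with Alb as a covariate, where 7 solute carriers rose and 4 fell.

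The difference between the lines followed transcript length, and 3 large groups of short genes had members that rose and none that fell. With the genes split into 5 classes of equal size by transcript length, the median log2 difference went from 0.13 in the shortest class (median 1179 nt) through 0.04, -0.004 and -0.05 to -0.10 in the longest (median 6236 nt), and in ivermectin from 0.17 to -0.15. In the shortest class as a whole, 363 of 2165 genes rose (16.8%) and 126 fell (5.82%). Of 77 cytosolic ribosomal protein genes, 36 rose (46.8%) and none fell, and 70 of the 77 are in the shortest class. Rpl23 rose from 396 ± 21.4 to 604 ± 22.2 CPM, Rpl19 from 733 ± 57.5 to 1056 ± 138 and Rps27a from 483 ± 39.2 to 707 ± 65.7, all 3 on chromosome 11; such genes have many processed copies in the genome, so their counts are uncertain. Of 85 oxidative phosphorylation subunits, 26 rose and none fell, with 74 in the shortest class. Uqcrq, of complex III, rose from 245 ± 12.9 to 373 ± 49.3 CPM, Cox7c, of complex IV, from 209 ± 9.58 to 307 ± 30.3, and Atp5d, of ATP synthase, from 194 ± 5.702 to 276 ± 24.6. Of 76 mitochondrial ribosomal proteins 11 rose, among them Mrps7 (55.2 ± 9.34 against 86.7 ± 5.05 CPM), and none fell. The rises are 14.5%, against 9.89% over all genes and 16.8% in the shortest class, which holds 60 of the 76. Proteasome subunits, 28 of 36 in the shortest class, had 4 that rose and 2 that fell. In a fit that took the length trend out of each library, added after the data were seen, 15 cytosolic ribosomal protein genes rose and 8 fell, 8 oxidative phosphorylation subunits rose and 4 fell, and 6 mitochondrial ribosomal proteins rose and 2 fell, with medians of 0.03, 0.02 and 0.10. The same fit left 18 cholesterol and fatty acid genes higher and 6 lower, and 9 potassium channel subunits lower. Leaving out single libraries gave 20 to 51 ribosomal protein genes higher, with 20 without knockout library 1, 22 without wild-type library 2, and 23 without wild-type library 4 or knockout library 4. For oxidative phosphorylation it gave 15 to 35, with 15 without wild-type library 2 and 16 without knockout library 4. With Alb as a covariate 11 cytosolic ribosomal protein genes, 9 oxidative phosphorylation subunits and 2 mitochondrial ribosomal proteins rose, and Mrps7 lost its call.

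**Figure D3:**
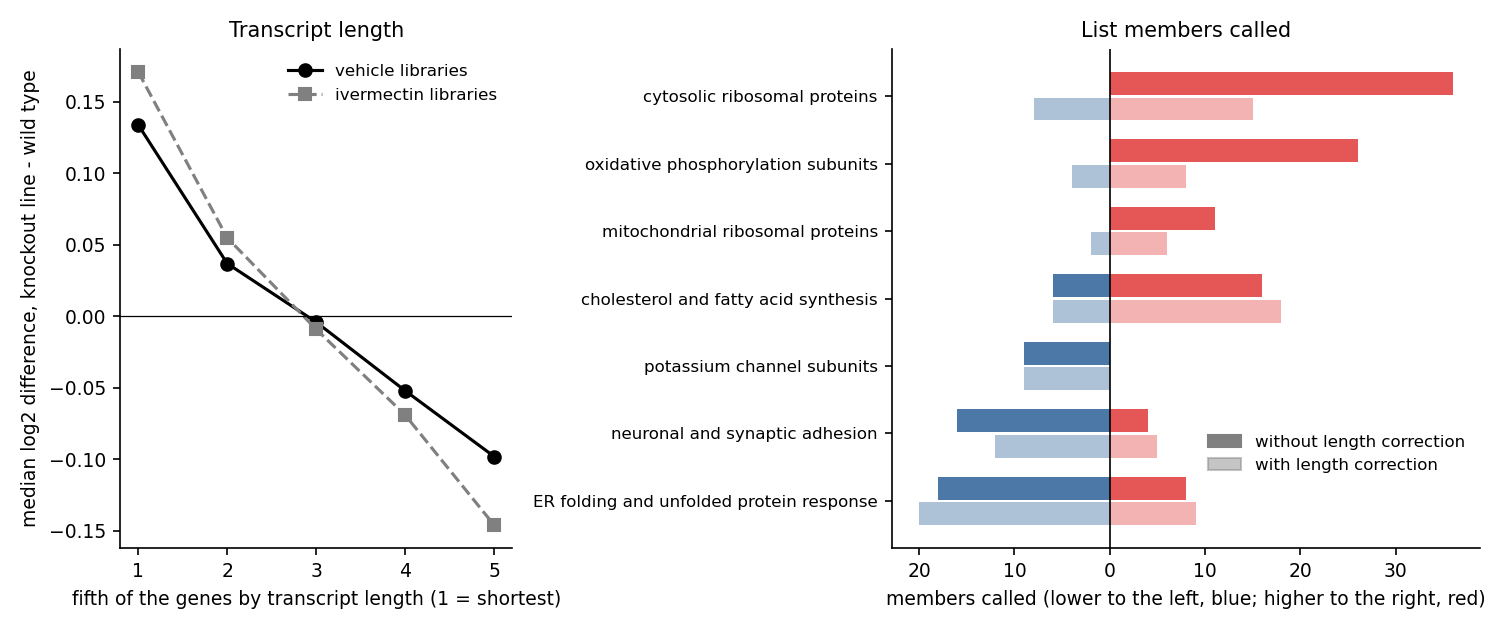
Left, the median log2 difference of the knockout line from wild type in each of 5 classes of genes by transcript length, in vehicle and in ivermectin libraries. Right, the members of 7 lists called higher (red) or lower (blue) without and with (pale) a correction for the length trend: the ribosomal protein genes go from 36 higher to 15 higher and 8 lower, while the potassium channels stay at 9 lower.

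Chaperones of the endoplasmic reticulum and the unfolded protein response were called in 26 of 56 cases, 8 higher and 18 lower (median log2 -0.07). Hyou1, a chaperone of the lumen, had 1341, 1428, 1389 and 1421 CPM in wild type and 973, 966, 926 and 958 in the knockout line (log2 -0.55, SE 0.05, adjusted p = 1.21e-10). Hspa5, the chaperone BiP that senses unfolded protein, had 2764, 2776, 2631 and 2667 against 2188, 2167, 2255 and 2256 (log2 -0.29, adjusted p = 8.74e-06). Neither pair of groups overlapped. Dnajb11, a partner of BiP, fell from 418 ± 36.4 to 314 ± 17.6 CPM. Among the members that rose, Phgdh and Psat1, which make serine, went from 144 ± 11.96 to 229 ± 15.9 and from 386 ± 12.98 to 514 ± 16.6 CPM, and Cars, a tRNA synthetase, from 123 ± 12.02 to 158 ± 6.78. Slc7a5, an amino acid carrier induced by the same stress factors, fell from 510.2 ± 41.6 to 376 ± 18.3. Of the list's 18 falls, 7 were among its 9 genes on chromosomes 4, 8 and 16, and with a correction for chromosome 13 fell and 7 rose. Hspa5, Dnajb11 and Cars lost their calls with Alb as a covariate, where 2 genes of the list rose and 3 fell, and leaving out wild-type library 4 or knockout library 4 left 4 rises.

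The ER stress response element, a CCAAT and a CCACG set 9 bases apart, a site of the factor ATF6, is found before some genes of this list. On either strand of the 250 bases before the start it was found for 17 of 8722 tested genes (0.195%), and 10 of these are among the list's 48 genes with a window (20.8%). Of the list's 16 fallen genes with a window, 5 hold it: Calr, Derl3, Dnajc3, Hspa5 and Syvn1, of which 4 are shown with the fixed bases of the element in capitals (RefSeq, GRCm38.p6). Of the 7 that rose, none does. The windows are chr2:34771840-34772089 on the plus strand, chr8:84846932-84847181 on the minus strand, chr14:118937682-118937931 and chr19:6046326-6046575 on the plus strand, each 5′ to 3′.
Hspa5: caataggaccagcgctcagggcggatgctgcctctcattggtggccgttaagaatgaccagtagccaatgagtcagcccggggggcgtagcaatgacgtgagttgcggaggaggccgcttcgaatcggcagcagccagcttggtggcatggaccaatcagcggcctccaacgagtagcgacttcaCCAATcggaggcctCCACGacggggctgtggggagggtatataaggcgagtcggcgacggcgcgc
Calr: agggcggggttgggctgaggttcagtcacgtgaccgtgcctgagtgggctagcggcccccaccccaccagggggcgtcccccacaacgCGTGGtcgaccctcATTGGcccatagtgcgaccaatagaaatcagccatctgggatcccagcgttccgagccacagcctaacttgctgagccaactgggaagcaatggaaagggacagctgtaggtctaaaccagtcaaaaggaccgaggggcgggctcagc
Dnajc3: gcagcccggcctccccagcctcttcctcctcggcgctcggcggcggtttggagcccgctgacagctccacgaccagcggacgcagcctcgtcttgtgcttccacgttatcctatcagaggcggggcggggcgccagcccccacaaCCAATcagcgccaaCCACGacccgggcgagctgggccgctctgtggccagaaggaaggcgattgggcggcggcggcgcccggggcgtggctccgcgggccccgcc
Syvn1: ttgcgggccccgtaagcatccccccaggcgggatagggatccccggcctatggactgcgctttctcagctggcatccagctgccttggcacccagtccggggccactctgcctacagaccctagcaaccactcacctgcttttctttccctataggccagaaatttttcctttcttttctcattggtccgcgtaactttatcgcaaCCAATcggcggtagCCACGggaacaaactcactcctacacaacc
Calr, calreticulin, a calcium-binding chaperone, fell from 2821 ± 83.8 to 2464 ± 75.2 CPM (adjusted p = 0.00119), Dnajc3, a co-chaperone, from 525 ± 21.2 to 459 ± 18.4 (adjusted p = 0.0127) and Syvn1, a ubiquitin ligase of the ER, from 222 ± 20.3 to 176 ± 13.8 (adjusted p = 0.00195). Derl3, of the same degradation pathway, had 32.5 ± 7.07 against 22.1 ± 5.49 with overlapping groups and an adjusted p of 0.0402, and its call was lost with DESeq2, after thinning and without any of wild-type libraries 1, 3 and 4 or knockout libraries 3 and 4. Calr and Dnajb11 lost their calls with the chromosome correction, Dnajc3 with the length correction, without a low-count filter and without wild-type library 1, and Calr, Derl3, Dnajc3 and Syvn1 with Alb as a covariate. The other 5 of the 10 genes with the element, Canx, Creld2, Ero1lb, Hsp90b1 and Pdia6, were not called.

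Of 17 hypoxia genes 3 rose (17.6%, against 9.89% over all genes) and 5 fell (29.4%, against 10.8%). Without wild-type library 1 or 4, 1 rose. Egln3, an oxygen sensor, fell from 20.1 ± 6.36 to 7.48 ± 0.583 CPM and Vegfa from 198 ± 11.2 to 142 ± 9.85. Of 27 antioxidant genes 4 rose (14.8%) and 8 fell (29.6%), and with the length correction 2 rose and 11 fell. Txnip, the glucose-induced inhibitor of thioredoxin, fell from 99.3 ± 12.6 to 57.5 ± 2.48 CPM, and Gstp1, a glutathione transferase, from 234 ± 21.2 to 151 ± 12.9, while Gpx4, a peroxidase that protects lipids, rose from 171 ± 29.4 to 221 ± 28.2 with overlapping groups. Of 15 core clock genes none rose (0%, against 9.89% over all genes) and 3 fell (20.0%, against 10.8%). Arntl, which encodes BMAL1, had 7.87, 13.7, 14.96 and 13 CPM in wild type and 6.97, 6.02, 4.99 and 6.36 in the knockout line (adjusted p = 0.00786), and Per2, a repressor of the clock, 40.5, 31.3, 28.8 and 37.1 against 16.8, 21.6, 18.5 and 18.5 (adjusted p = 0.000153). The groups do not overlap for either. Hlf, a clock output factor, fell from 13.97 ± 3.28 to 6.02 ± 1.14 CPM. In ivermectin Per2 and Hlf were called and Arntl (adjusted p = 0.127) was not, and the number of clock genes that fell was 5 without wild-type library 1 or with the chromosome correction. Among 38 immediate-early genes 4 rose and 2 fell, 15.8%, below the share over all genes. Without wild-type library 4, 2 rose, and without wild-type library 2, 3 or 4 or knockout library 3 or 4, 1 fell. Egr1, a factor induced within minutes of stimulation, rose from 118 ± 27.6 to 188 ± 24.8 CPM, Dusp4, a phosphatase that ends MAP kinase signals, from 76.8 ± 11.97 to 115 ± 10.8, and Nr4a2 fell from 15.4 ± 4.77 to 6.98 ± 0.71. Egr1 went the other way in ivermectin (log2 -0.55 against 0.67 in vehicle; adjusted p of the difference 0.000353). Txnip, Gstp1, Gpx4, Arntl, Per2, Hlf, Egr1, Nr4a2 and Dusp4 were no longer called with Alb as a covariate. In that fit no antioxidant or clock gene was called, 1 hypoxia gene rose and 2 fell, and no immediate-early gene rose and 1 fell. After thinning 3 of 17 hypoxia genes fell, and of the 32 immediate-early genes still tested 2 rose and 1 fell.

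Of 64 genes of the cell cycle and DNA replication, 11 rose (17.2%, against 9.89% over all genes) and 2 fell (3.13%, against 10.8%). Without wild-type library 2, 1 fell, and in ivermectin 15 were higher and 4 lower. Ccnd2, the cyclin of G1 phase in β-cells, had 146, 137, 127 and 137 CPM in wild type and 222, 280.3, 235 and 253 in the knockout line. No knockout library was as low as any wild-type library (log2 0.86, SE 0.08, adjusted p = 3.45e-10). Aurkb, a mitotic kinase, rose from 80.1 ± 4.92 to 119 ± 3.97 CPM and Mcm3, of the replicative helicase, from 229.6 ± 19.8 to 307 ± 7.85, a call lost with Alb as a covariate. With the length correction 6 genes of this list fell, and with Alb as a covariate 2 rose and none fell. Of 23 interferon and antigen presentation genes 3 rose (1 without wild-type library 4) and 5 fell: Usp18, an interferon-induced protease, went from 31.3 ± 8.101 to 16.97 ± 1.103 CPM, a call lost with Alb as a covariate, and H2-Q7, a class I histocompatibility gene with close copies, from 37.8 ± 3.66 to 21.1 ± 3.25. The fit with Alb as a covariate left 1 gene of the list higher and 1 lower, and after thinning 3 of the 20 still tested fell.

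The hepatocyte list stood apart from the rest of the contrast. Of 58 members tested, 3 rose and 51 fell, with a median log2 difference of -3.37, and 10 of its 184 genes had a count of 0 in all 8 libraries. Alb had 923, 328, 380.3 and 684 CPM in the wild-type libraries and 52.3, 17.1, 36.4 and 49.8 in the knockout libraries. Trf, transferrin, fell from 122 ± 67.2 to 8.34 ± 3.45 CPM and Apoe, apolipoprotein E, from 189 ± 73.6 to 19.3 ± 6.78, and neither overlapped between the groups. Adh1, an alcohol dehydrogenase on the same list, rose from 206 ± 31.5 to 259 ± 10.4 CPM, with overlapping groups, and is part of the list's sum in both lines. The fall was in 127 members with no filter on low counts and in 33 of the 38 still tested after thinning. It was in 4 among genes averaging 50 counts or more, a limit that leaves fewer members tested. In the ivermectin libraries the list's median was -0.24, with 4 higher and 5 lower, and 19 of the 24 genes whose line difference depended on the treatment are on this list. Of the 4 groups it was wild type in vehicle that was high: summed over the list, 1963 to 4752 CPM, against 783 to 1252 in wild type with ivermectin, 619 to 780.4 in the knockout line in vehicle and 672 to 1174 in the knockout line with ivermectin. Some genes outside the list were also called lower in vehicle and not in ivermectin: C4b, a complement protein, had 13.2 ± 7.87 against 0.555 ± 0.643 CPM, Car3, a carbonic anhydrase of muscle and fat, 30.4 ± 9.17 against 1.43 ± 0.426, and Cat, catalase, 26.5 ± 15.4 against 3.81 ± 0.912. The 18 markers of skeletal muscle, 3 of them at 0 throughout, summed to 27.2 to 45.1 CPM in wild type and 5.46 to 9.17 in the knockout line in vehicle, and the 8 erythroid markers, 3 of them at 0 throughout, to 1.97 to 9.68 and 0 to 1.72. What part these transcripts have in other differences was not tested. With Alb as a covariate Trf, Apoe, Adh1, C4b, Car3 and Cat were no longer called, and the log2 difference of Trf became 0.14. Leaving the list out of the tables changed 1070 higher and 1174 lower genes to 1070 and 1125.

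**Figure D4:**
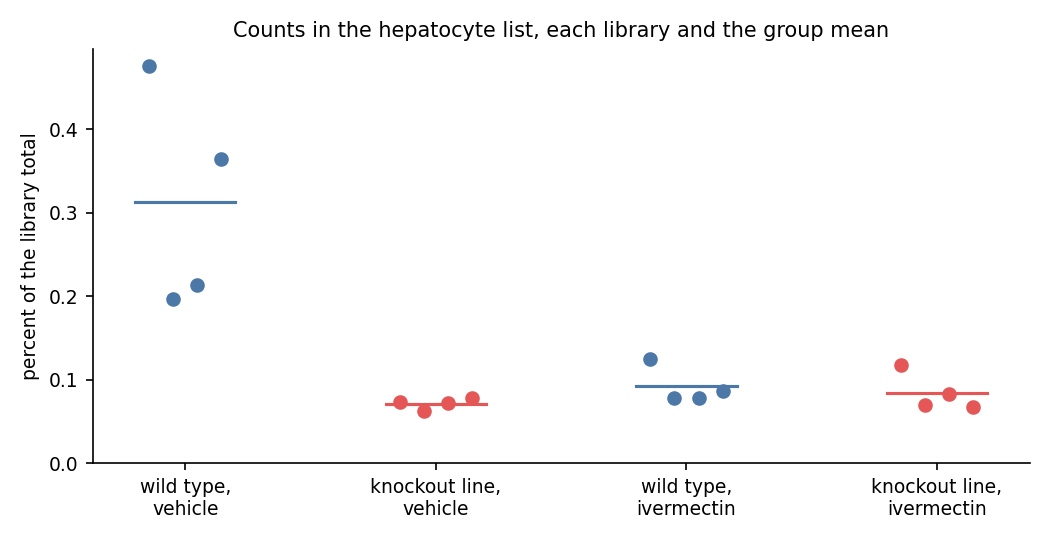
Counts in the hepatocyte list as a percent of each library's total, in each of the 16 libraries (points), with group means (bars). The 4 wild-type vehicle libraries sit between 0.196% and 0.475%, above the other 12.

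Called genes were spread unevenly over the chromosomes. On chromosome 11, 266 of 886 tested genes rose (30.0%) and 33 fell, with a median log2 difference of 0.22. On chromosome 16, 1 of 340 rose and 93 fell (27.4%), with a median of -0.24. Chromosome 4 had 16 higher and 143 lower of 703 (median -0.14), chromosome 8 had 12 higher and 130 lower of 598 (median -0.13), and chromosome 10 had 98 higher and 34 lower of 544 (median 0.12). The medians in ivermectin, from libraries that share none with the vehicle comparison, were 0.23, -0.22, -0.15, -0.16 and 0.10 for chromosomes 11, 16, 4, 8 and 10. Each library showed the pattern: over the more abundant genes (average log2 CPM of 3 or more), the median deviation of chromosome 11 from the mean of the 8 vehicle libraries was -0.11 to -0.09 in wild type and 0.11 to 0.13 in the knockout line, and of chromosome 16 0.12 to 0.13 and -0.11 to -0.10. Among the same more abundant genes, with boundaries chosen after the data were seen, the median on chromosome 10 was 0.17 before 90 Mb (over 376 genes, 87 of them higher) and was -0.02 over the 145 genes from 90 Mb on, and on chromosome 7 genes before 30 Mb had a median of 0.17 against 0.03 beyond. Positions are in build GRCm38.p6. In a fit that took each chromosome's median out of each library, added after the data were seen, 863 genes rose and 1003 fell. Of the 2244 calls made without that correction, 1607 were kept. Many of the changes named above were larger than these medians. Timp2 and Igfbp4, which fell, lie on chromosome 11, where the median was higher. What part the chromosome medians have in the named changes was not tested. Sst, on chromosome 16, fell as that chromosome's median did, by far more. DNA copy number was not measured in these libraries.

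**Figure D5:**
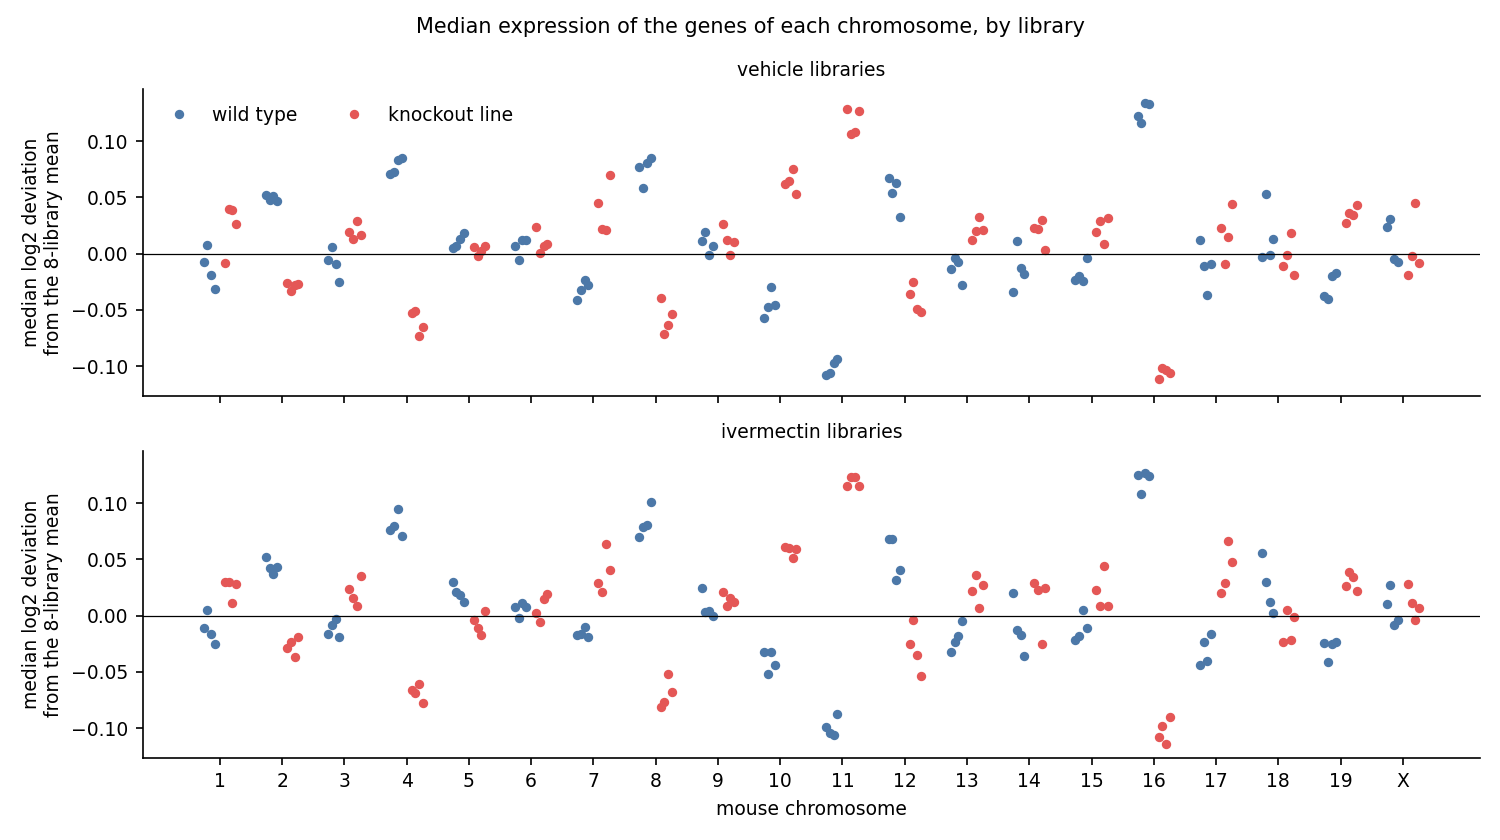
Median over the genes of each chromosome of the log2 deviation of a library from the mean of the 8 libraries with the same treatment; each point is 1 library, wild type in blue and knockout in red. The 4 knockout libraries are above the 4 wild-type libraries on chromosomes 3, 7, 10, 11, 13, 15 and 19 and below them on chromosomes 2, 4, 8, 12 and 16, in vehicle and in ivermectin.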

How the data were processed

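Gene-level values of 16 poly(A) RNA libraries (125 ng RNA, 11 PCR cycles, paired 42-nt reads, per the labels) were used. The submitters' processing notes name bcl2fastq, STAR 2.7.2b, RSEM 1.3.3 and DESeq2 1.32.0 with build mm10; how each was run is not given in the sources used here. The authors deposited RSEM expected counts, TPM and transcript lengths per library, and a table of whole-number counts, which equals the expected counts rounded down; human single-cell files were not used here. Expected counts were rounded to whole numbers. Genes were filtered (filterByExpr, minimum count 10, minimum total 15), scaled by TMM and fitted over all 16 libraries with edgeR 4.0.16 (R 4.3.3; quasi-likelihood test, Benjamini-Hochberg threshold 0.05). The fitting code was also checked on simulated counts, which enter no value given here. Intervals are exact at 95%; the limit for a count of 0 is 3 counts. Symbols of 23262 of 23329 genes matched the RefSeq table, which gave positions.

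The members and gene lists were chosen with earlier results of these data known. Genes named are P2ry1, the largest non-overlapping rises and falls at average log2 CPM of at least 1 and at least 6, up to 3 genes per list and direction by adjusted p, and 4 abundant hepatocyte genes. Gal, Gcg, Ins1, Ins2, Mirg, Ndn, Kcnj11, Slc2a2, Gipr, Glp1r, Pdx1, Srebf1, Calr, Derl3, Dnajc3 and Syvn1 fall outside that rule and were chosen after their values were seen. Alternatives were other scaling, DESeq2 1.42.0, filters, thinning to 893292 counts, a 1.5-fold threshold, a replicate block, the deposited counts, leaving out the hepatocyte list or single libraries, and Alb as a covariate; offsets for transcript length (20 classes) and chromosome were added after the data were seen. A few genes are not reported here.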

Additional observations from a re-analysis of the deposited data

Results flagged for a closer look

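In 23 of 346 groups of 4 libraries, one library stood apart from the other 3 by more of the group's range than Dixon's critical value at 95%; chance gives about 1 in 20 such groups, so this number is close to it. Among wild-type libraries the gap was 0.842 of the range for Meg3, 0.952 for Abcc8, 0.838 for Prkca, 1 for Tbx15 and Nr2f1, 0.914 for Gata6, 0.933 for Mnx1, 0.892 for Pcdh7, 0.86 for Tgfb2 and 0.846 for Id2. Among knockout libraries it was 0.868 for Syt10, 1 for Kcnk1 and Nkx2-4, 0.87 for Kcnj11 and Fads1, 0.917 for Slc2a5, 0.859 for Necab2, 0.846 for Tars2, 0.895 for Cntnap2, 0.935 for Slc7a5, 0.891 for Phgdh, 0.835 for Mrps7 and 0.834 for the share of counts in ribosomal protein genes. A gap of 1 arises where 3 libraries have a count of 0.

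The difference between the lines depended on the treatment for 5 named genes by edgeR's test of the interaction. The vehicle difference minus the ivermectin difference was 1.22 on the log2 scale for Egr1, -3.34 for Alb, -3.32 for Trf, -2.57 for Apoe and -3.34 for Car3.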

How the results depend on the processing

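The vehicle comparison gave 1692 to 2652 called genes under other scaling, DESeq2, other filters, thinning, the 8 libraries alone, the deposited counts and the length and chromosome corrections, and 1845 to 2333 without single libraries, all within 1.5 times 2244. It gave 237 (51 higher, 186 lower) with a 1.5-fold threshold and 386 (206 higher, 180 lower) with Alb as a covariate, where Alb and Trf changed sign to log2 differences of 0.0298 and 0.14. The treatment-dependent count of 24 became 15 with DESeq2, 82 with no low-count filter, 4 with a mean of at least 50 counts and 47 with the replicate block; with 8 libraries it could not be fitted. The cause was not tested. The labels number replicates but do not pair them: same-numbered libraries of the 2 lines correlated at 0.074, 0.069, -0.031 and 0.025, and with the replicate block 2282 genes were called (1088 higher, 1194 lower), and 3045 in ivermectin. Totals of 893292 to 1065004 in wild type limit genes of few counts: a count of 0 there allows up to 2.82 to 3.36 CPM.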
